A study of Xenopus tropicalis with 31 samples.

Results

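The regions marked by acetylation of histone H3 at lysine 27 (H3K27ac) were compared between ectoderm and endoderm of *Xenopus tropicalis* at stage 10.5, the early gastrula. H3K27ac was profiled by chromatin immunoprecipitation and sequencing (ChIP-seq) in 1 sample of each tissue, and the 2 tables of marked regions hold 33520 of the 190255 regions and peaks in the 16 lists of the series. There were 16257 ectoderm regions and 17263 endoderm regions. A region was called shared when it overlapped a region of the other table by at least 1 bp, and ectoderm-only or endoderm-only when it did not.

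The series has 31 samples in 19 groups. It asks how the maternal factors Foxi2 and Sox3 act on the ectodermal genome. For H3K27ac, animal ectoderm and vegetal endoderm were dissected from wild-type early gastrulae. The H3K27ac regions were set against lists of the coactivator Ep300 (P300 in the plots) in wild-type ectoderm and endoderm in a first and a second experiment, Ep300 in the same tissues of FS morphants, Foxi2 and Sox3 in whole wild-type embryos, and trimethylation of histone H3 at lysine 27 (H3K27me3) in wild-type ectoderm and endoderm. FS morphants are embryos injected with morpholinos, antisense molecules that block translation, against *foxi2* and *sox3*. Foxi2 and Sox3 were therefore not measured by tissue. Their lists come from the mid to late blastula (stages 8 and 9) and from stage 10.5. Where no stage is named, the stage 10.5 lists are meant. The Ep300 and H3K27me3 lists are all from stage 10.5. The H3K27ac tables have 1 sample per tissue, so no difference between them can be set against the spread between replicates and no test was made. Each share is given with a Wilson 95% interval, which covers counting error only.

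H3K27ac is laid down by acetyltransferases such as Ep300 and marks active promoters and enhancers. H3K27me3 is deposited by the Polycomb complex PRC2 and marks silenced developmental genes. The same lysine cannot carry both marks. A region can still appear in both lists where cells of a tissue differ, or where the marks lie on different stretches of it, and these were not told apart. Super-enhancers (SEs) are clusters of neighbouring enhancers with much H3K27ac, often found at genes that define a cell type. In the frog gastrula, ectoderm gives epidermis and nervous system, and vegetal endoderm gives the gut under the control of VegT, Nodal ligands, Mix-type homeodomain factors, Sox17 and Gata factors.

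The labels leave some doubts. The extraction protocol names an antibody against VegT for every sample, so the titles were followed for what was precipitated. In both tables the header of the signal column names the animal (ectoderm) library. No region had the same start and end in both tables. In the 887 pairs of regions that shared at least 90% of each and had signal in both, the ratio of ectoderm to endoderm signal per bp had a median of 1.06, and its 5th and 95th percentiles were 0.771 and 1.60. Only 6.88% of these pairs agreed within 2%, and 67.6% lay over 10% apart. The signal columns thus hold different values, but which library gave the endoderm ranks is not settled. Ranks are used as deposited.

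About 40% of the regions of each table were found in that tissue alone, and these were short and weakly ranked. Of the ectoderm regions, 6466 were ectoderm-only (39.8%, 95% interval 39.0 to 40.5) and 9791 were shared. Of the endoderm regions, 6862 were endoderm-only (39.7%, 39.0 to 40.5) and 10401 were shared. Tissue-only regions held a much smaller part of the stitched span than of the region count. Ectoderm-only regions spanned 23.0 Mb, 13.5% of the 170 Mb spanned by the ectoderm table, and endoderm-only regions spanned 22.9 Mb, 16.3% of 140 Mb.

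ROSE, the program behind the tables, joins neighbouring peaks, its constituents, into 1 stitched region. The constituents made up 34.2% of the ectoderm span and 27.1% of the endoderm span, and the rest was gaps between them. Below, DNA is called marked when it lies inside a stitched region, gaps included, for H3K27ac and for H3K27me3. The ectoderm-only regions had a median stitched span of 516 bp (quartiles 300 and 2853) and a mean of 1.80 constituents, against 4721 bp and 4.56 constituents in shared ectoderm regions. The endoderm-only regions had a median of 452 bp (quartiles 282 and 2231) and 1.77 constituents, against 2952 bp and 3.76 in shared endoderm regions. A single constituent made up 68.0% of ectoderm-only and 71.5% of endoderm-only regions. In shared regions the share was 39.0% in ectoderm and 43.6% in endoderm. Signal per bp did not separate the classes, with medians from 0.584 to 0.593.

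The share of tissue-only regions fell as regions became wider. Among regions under 500 bp, 68.9% in ectoderm and 64.6% in endoderm were found in that tissue alone. Among regions of 10 kb and over, 16.4% (15.3 to 17.5) and 17.8% (16.7 to 19.0) were. Rank, which follows the total signal of a region, gave the same picture. In the best-ranked 10% of ectoderm regions 6.83% were tissue-only, and in the lowest-ranked 10% the share was 81.8%. In endoderm the shares were 10.4% and 78.1%. The plot of regions, span and rank shows these shares.

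**Figure D1:**
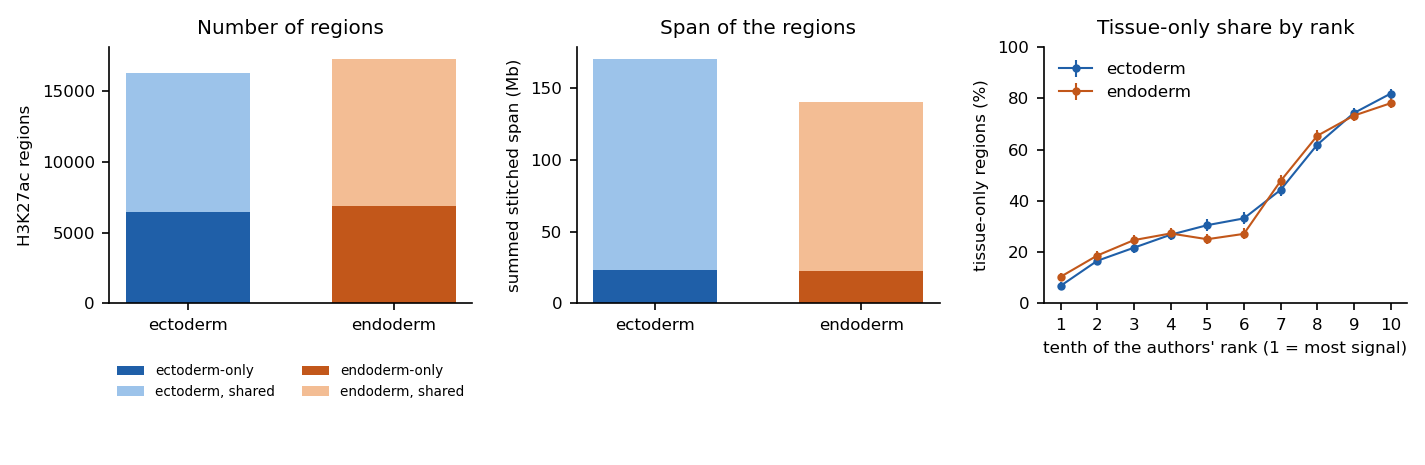
Number of H3K27ac regions (left), their summed stitched span in Mb (middle) and the percent of regions found in 1 tissue alone by rank in steps of 10% of the list (right, bars are Wilson 95% intervals), for 1 sample per tissue. Tissue-only regions are 39.8% of ectoderm regions but 13.5% of ectoderm span, and their share rises from 6.83% in the best-ranked 10% to 81.8% in the lowest-ranked 10%.

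Shared regions were not the same stretch of DNA in both tissues. The 2 tables formed 10938 overlapping pairs, of which 8041 joined 1 ectoderm region to 1 endoderm region and nothing else. The sequence inside both tables was 74.1 Mb, which is 43.6% of the ectoderm span and 52.9% of the endoderm span. The median shared ectoderm region was covered to 72.4% by endoderm regions, and the median shared endoderm region to 97.4% by ectoderm regions. In the pairs of 1 to 1, the ectoderm region was the wider in 4737 and the endoderm region in 3299, with a median ratio of 1.12 (quartiles 0.683 and 2.67). The ectoderm region was over 4 times wider in 1612 pairs and the endoderm region in 1075. A shared region can thus be much longer in one tissue than in the other, which the classes by 1 bp do not show.

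Over all widths, the tissue-only regions lay outside genes more often than the shared ones. A gene was overlapped by 58.8% (57.6 to 60.0) of ectoderm-only and 72.9% (72.0 to 73.8) of shared ectoderm regions on the 10 chromosomes. The values were 53.6% (52.4 to 54.8) and 70.9% (70.0 to 71.8) in endoderm. Among regions of 10 kb and over, 73.6% of ectoderm-only and 63.6% of endoderm-only regions overlapped a gene, against 84.6% and 81.4% of shared ones. Among ectoderm regions under 500 bp the intervals overlapped, with 53.7% (51.9 to 55.4) of ectoderm-only and 52.9% (50.3 to 55.5) of shared regions. In endoderm the shares at that width were 51.2% (49.7 to 52.8) and 59.0% (56.8 to 61.1). No gene lay within 50 kb of 10.9% of ectoderm-only and 8.14% of shared ectoderm regions, and of 14.8% of endoderm-only and 7.89% of shared endoderm regions.

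Over all widths, Ep300 of a region's own tissue was the more frequent in tissue-only regions. In the first experiment, ectoderm Ep300 was found in 5.97% (5.42 to 6.57) of the ectoderm-only regions and endoderm Ep300 in 2.17% (1.84 to 2.55). Of the endoderm-only regions, 11.9% (11.2 to 12.7) held endoderm Ep300 and 1.21% (0.977 to 1.50) ectoderm Ep300. The second experiment gave 7.28% and 2.04% for ectoderm-only regions, and 14.2% and 0.874% for endoderm-only regions. The 3150 ectoderm-only regions under 500 bp had the opposite order on few peaks. Of these, 0.35% (0.20 to 0.62) held ectoderm and 0.83% (0.56 to 1.21) endoderm Ep300 in the first experiment, and 0.19% (0.087 to 0.41) and 0.41% (0.24 to 0.70) in the second. Most tissue-only regions had no Ep300 peak of the first experiment in either tissue (92.7% in ectoderm and 87.7% in endoderm).

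Shared regions held Ep300 more often, and width moved with that difference. The ectoderm Ep300 list was met by 20.5% of shared ectoderm regions, 14.6 percentage points more than of ectoderm-only regions. After both sets were weighted to the same widths, the shares were 13.7% in shared and 13.2% in ectoderm-only regions. The endoderm Ep300 list was met by 21.1% of shared endoderm regions, 9.21 points more than of endoderm-only regions. At equal widths this order turned, with 17.4% in shared and 24.2% in endoderm-only regions. In endoderm regions of 10 kb and over, 59.3% (55.7 to 62.8) of the endoderm-only and 53.2% (51.5 to 54.9) of the shared ones held an endoderm Ep300 peak. In ectoderm regions of that width the order stayed, with 34.3% (30.9 to 37.8) of ectoderm-only and 46.6% (45.0 to 48.2) of shared regions. In ectoderm regions of 2 to 10 kb the shares were 9.46% and 9.32% in the first experiment, and 15.5% (13.5 to 17.7) and 8.54% (7.47 to 9.75) in the second.

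Per length of stitched span, the own-tissue Ep300 density of endoderm-only regions was 49.9 peaks per Mb, against 42.9 in shared endoderm regions. In ectoderm-only regions the ectoderm Ep300 density was 20.7 per Mb, against 26.9 in shared ectoderm regions. The other tissue's Ep300 was sparse in both, with 7.84 endoderm peaks per Mb in ectoderm-only and 3.85 ectoderm peaks per Mb in endoderm-only regions. The endoderm Ep300 list has 11690 peaks and the ectoderm list 5840, so densities of the 2 lists are not on 1 scale.

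Foxi2 and Sox3 peaks of stage 10.5 lay more often in ectoderm-only than in endoderm-only regions. Foxi2, a forkhead factor, overlapped 6.67% (6.08 to 7.30) of ectoderm-only and 2.93% (2.56 to 3.36) of endoderm-only regions. Sox3, an SRY-related factor of early and neural ectoderm, overlapped 13.5% (12.7 to 14.3) and 5.52% (5.01 to 6.09). A peak of each factor was found in 5.61% (5.08 to 6.20) of ectoderm-only and 2.39% (2.05 to 2.78) of endoderm-only regions, a difference of 3.22 points. At equal widths the shares were 11.8% and 5.75%. With the stage 8 lists the difference was -0.19 points (95% interval -0.51 to 0.13), and the 2 factors went opposite ways. Foxi2 of stage 8 overlapped 8.44% (7.79 to 9.15) of ectoderm-only and 5.16% (4.66 to 5.71) of endoderm-only regions. Sox3 of stage 8 overlapped 1.27% (1.02 to 1.57) and 1.94% (1.64 to 2.29).

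Against shared ectoderm regions, the order of these factors depended on width. Over all widths, Foxi2 density per length of stitched span was 23.3 peaks per Mb in ectoderm-only and 23.4 in shared ectoderm regions, and Sox3 density was 49.4 and 50.6. Shared endoderm regions had 23.8 Foxi2 and 50.7 Sox3 peaks per Mb. The endoderm-only class was the one that stood apart, with 10.8 Foxi2 and 20.7 Sox3 peaks per Mb. In regions of 10 kb and over, Sox3 was found in 54.5% of ectoderm-only, 63.8% of shared ectoderm, 56.7% of shared endoderm and 28.1% of endoderm-only regions. Foxi2 gave the same order at that width, with 32.6% (29.3 to 36.1) of ectoderm-only, 41.7% (40.1 to 43.3) of shared ectoderm, 36.1% (34.5 to 37.8) of shared endoderm and 16.4% (13.9 to 19.3) of endoderm-only regions. In ectoderm regions of 2 to 10 kb the ectoderm-only class had the larger shares, with Foxi2 in 12.7% (10.9 to 14.8) against 9.41% (8.28 to 10.7) of shared regions, and Sox3 in 28.3% (25.7 to 31.0) against 24.0% (22.3 to 25.8).

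**Figure D2:**
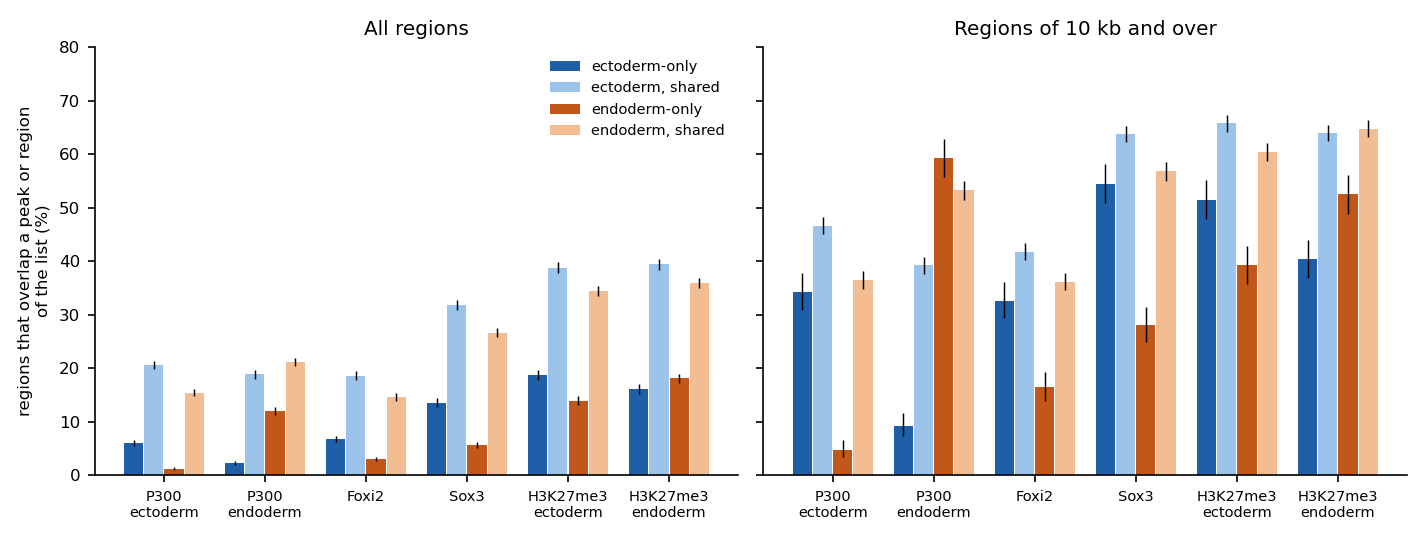
Percent of H3K27ac regions that overlap a peak or region of 6 lists by at least 1 bp, for the 4 classes, over all regions (left) and over regions of 10 kb and over (right), with Wilson 95% intervals. Endoderm-only regions of 10 kb and over hold endoderm P300 in 59.3% and ectoderm P300 in 4.72%.

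H3K27me3 was not confined to the tissue that lacked the acetylated region. The ectoderm H3K27me3 list overlapped 18.6% (17.7 to 19.6) of ectoderm-only and 13.9% (13.1 to 14.7) of endoderm-only regions. The endoderm H3K27me3 list overlapped 18.0% (17.1 to 19.0) of endoderm-only and 16.1% (15.22 to 17.02) of ectoderm-only regions. Over all widths, each tissue-only class thus met the H3K27me3 regions of its own tissue more often than the other class did. Among regions under 500 bp the endoderm list met 11.7% of endoderm-only and 11.4% of ectoderm-only regions, and from 500 bp to 2 kb it met 12.7% and 13.3%. At equal widths the ectoderm list met 26.5% of ectoderm-only and 19.5% of endoderm-only regions, and the endoderm list met 26.6% of endoderm-only and 21.9% of ectoderm-only regions. With only the H3K27me3 regions above the authors' rank cutoff, the ectoderm list differed by -0.063 points (-0.33 to 0.19), endoderm-only minus ectoderm-only. The endoderm list differed by 0.31 points (0.098 to 0.54), ectoderm-only minus endoderm-only, so its order turned. Shared regions met H3K27me3 in 34.3 to 39.4% of cases. The ectoderm H3K27me3 list covered 13.7% of the ectoderm-only and 8.63% of the endoderm-only span, and the endoderm list 9.87% and 14.7%. These lists span 171 and 156 Mb, and the overlap that such extents alone would give was not estimated.

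SEs were taken from the deposited calls, which rest on the signal rank within each list. The cutoff was passed by 7.11% of ectoderm regions (1156) and 3.89% of endoderm regions (671). Most SEs had a partner in the other tissue. In ectoderm, 389 SEs (33.7%, 31.0 to 36.4) overlapped an endoderm SE, 717 (62.0%, 59.2 to 64.8) overlapped only endoderm regions below the cutoff, and 50 (4.33%, 3.30 to 5.66) overlapped none. In endoderm, 388 (57.8%, 54.1 to 61.5) overlapped an ectoderm SE, 239 (35.6%, 32.1 to 39.3) overlapped only regions below the cutoff, and 44 (6.56%, 4.92 to 8.69) overlapped none.

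An SE whose partners lay below the cutoff was marked only in part in the other tissue. The median ectoderm SE of this kind was covered to 31.1% by endoderm regions, and its best partner stood 12.6% of the way down the endoderm ranks. The median endoderm SE of this kind was covered to 25.2%, with its best partner 18.3% of the way down the ectoderm ranks. SEs of both tissues were covered to a median of 85.8% in ectoderm and 99.2% in endoderm.

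Own-tissue Ep300 was common in all 3 kinds of SE, and Ep300 of the other tissue fell away with the partner. In the first experiment, ectoderm Ep300 was found in 84.6% of ectoderm SEs with an SE partner. It was found in 87.0% of those with a partner below the cutoff and in 84.0% of those with none. Endoderm Ep300 was found in 88.7% (85.2 to 91.5), 55.6% (52.0 to 59.2) and 24.0% (14.3 to 37.4) of the same SEs. In endoderm SEs the ectoderm Ep300 shares were 82.5% (78.4 to 85.9), 47.7% (41.5 to 54.0) and 9.09% (3.59 to 21.2), and endoderm Ep300 was found in 89.4%, 95.8% and 97.7%. In the second experiment, ectoderm Ep300 was found in 71.5% (66.8 to 75.7), 87.3% (84.7 to 89.5) and 86.0% (73.8 to 93.0) of the ectoderm SEs. Endoderm Ep300 was found in 81.7%, 60.8% and 26.0% of them. For endoderm SEs that experiment gave 82.7%, 92.9% and 97.7% with endoderm Ep300, and 71.6%, 49.8% and 11.4% with ectoderm Ep300. Both Foxi2 and Sox3 were found in 72.5%, 72.8% and 72.0% of the 3 kinds of ectoderm SE. In endoderm SEs the shares were 70.4% (65.6 to 74.7), 56.5% (50.1 to 62.6) and 50.0% (35.8 to 64.2). The share with both factors was thus level over the 3 kinds of ectoderm SE, and lower in endoderm SEs with no partner than in those with an SE partner. Foxi2 by itself was also level in ectoderm SEs, with 72.5%, 73.2% and 72.0%. Sox3 by itself was found in 83.8% (79.8 to 87.1) of ectoderm SEs with an SE partner. It was found in 92.9% (90.8 to 94.5) of those with a partner below the cutoff, and in 47 of the 50 with none (83.8 to 97.9%). Sox3 density had the opposite order, with 59.4, 50.5 and 50.5 peaks per Mb.

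**Figure D3:**
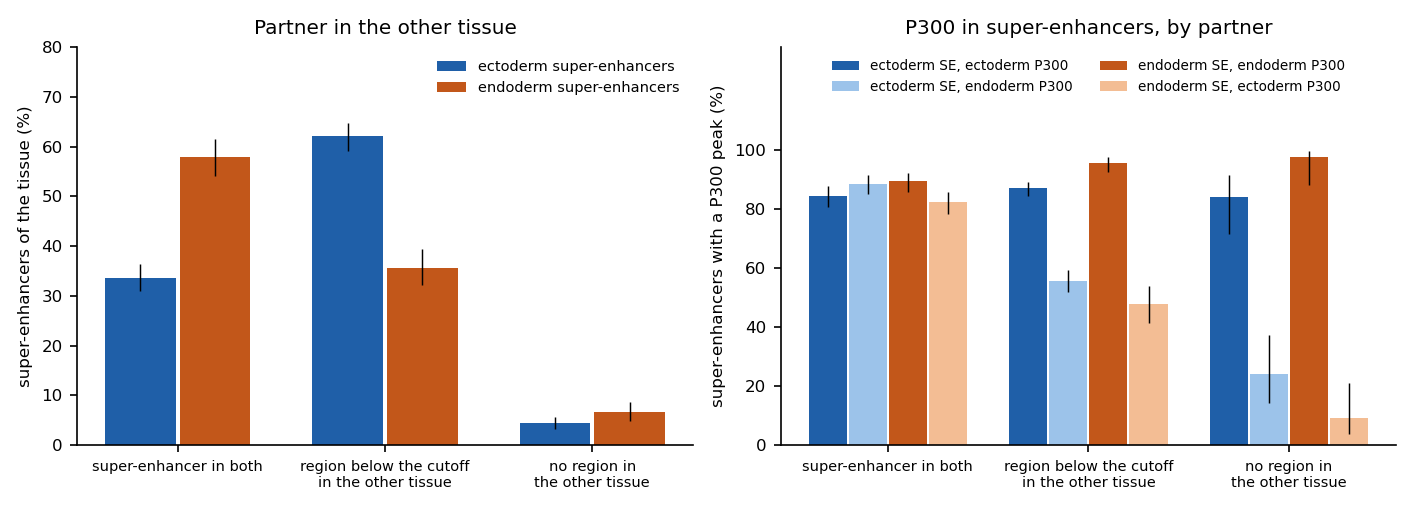
Percent of ectoderm SEs (n = 1156) and endoderm SEs (n = 671) by partner in the other tissue (left), and percent of them that hold an ectoderm or endoderm P300 peak of the first experiment (right), with Wilson 95% intervals. Endoderm P300 falls from 88.7% to 24.0% across the ectoderm SEs, while ectoderm P300 stays at 84.0% or above.

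The widest ectoderm-only region surrounded *klf17*, which encodes a Krüppel-like zinc finger factor (chromosome 4, 91699017 to 91892137 in the version 10.0 assembly). It spanned 193 kb with 37 constituents, stood at rank 22 and held 13 Foxi2, 14 Sox3, 10 ectoderm Ep300 and 4 endoderm Ep300 peaks. Stage 8 Foxi2 had 11 peaks in it. The second, at *klf5* and *pibf1* (chromosome 2, 127067130 to 127207449), spanned 140 kb with 33 constituents at rank 93 and held 8 Foxi2 and 9 Sox3 peaks. *klf5* encodes another Krüppel-like factor, known from epithelia. The next widest were at *elavl4* (110 kb, rank 348), which encodes an RNA-binding protein of neurons, and at *LOC100494753* (106 kb, rank 290) and *LOC108647613* (102 kb, rank 246). The third best rank, 190, belonged to a region of 99.0 kb at *hormad1* and *golph3l*, with 7 Sox3 and 0 Foxi2 peaks.

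The 50 ectoderm-only SEs had a median span of 50.8 kb. Of these, 42 held an ectoderm Ep300 peak, 12 an endoderm one and 36 both Foxi2 and Sox3. No gene was overlapped by 13. Several lay at genes of the epithelial surface, namely *ocln*, which encodes the tight junction protein occludin (45.7 kb, rank 878), *trim29* (93.6 kb, rank 225) and *cnfn.1* with *cnfn.2*, the cornifelin genes of the cornified envelope in mammals (69.7 kb, rank 684). They were chosen once their values were known, and no list was tested. The region at *dlx5* and *dlx6* and a region of 40.4 kb, 14376 bp from *tfap2a*, were also among the 50, as was a region of 48.8 kb at rank 1105, 19692 bp from *otx2*. The region near *otx2* held 2 ectoderm and 2 endoderm Ep300 peaks in the first experiment, and 2 and 4 in the second. Both regions with the smallest span, of 9.99 and 13.1 kb, held no Foxi2 or Sox3 peak and no Ep300 peak of the second experiment, but 3 and 8 endoderm Ep300 peaks of the first.

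The widest endoderm-only region was at *spry4* (chromosome 3, 37210945 to 37309195), which encodes an inhibitor of fibroblast growth factor signalling. It spanned 98.3 kb with 28 constituents at rank 157 and held 7 endoderm and 2 ectoderm Ep300 peaks. The next was at *fn1*, the gene for the matrix protein fibronectin (chromosome 9, 58739039 to 58829971). It spanned 90.9 kb at rank 165 and held 5 endoderm and 0 ectoderm Ep300 peaks. A region of 85.8 kb on chromosome 2 lay 91376 bp from the nearest gene, *pou3f1*, and one of 85.8 kb lay at *macrod2*. The fifth, at *cd248* and *foxa4* (chromosome 4, 38362030 to 38442984), spanned 81.0 kb at rank 166 and held 10 endoderm and 2 ectoderm Ep300 peaks. *foxa4* encodes a forkhead factor of the organizer and dorsal midline.

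The best-ranked endoderm-only region, rank 8, was the mitochondrial genome (positions 356 to 17432), which carries no histones. The other 43 of the 44 endoderm-only SEs lay on chromosomes. Of the 44, 43 held an endoderm Ep300 peak of the first experiment, 4 an ectoderm one and 22 both Foxi2 and Sox3, and 15 overlapped no gene. The mitochondrial genome was among those with such an endoderm peak, with 1 in the first experiment and 0 in the second. Besides the regions above, the 44 included *sox17a*, *cer1* and *gata6*. Genes of the extracellular matrix lay at tissue-only SEs of both tissues. They were *adamts5* (79.0 kb), *adamts18* (67.5 kb) and *ltbp1* (78.0 kb) in endoderm, and *adamts19* (53.2 kb), *hapln3* (56.4 kb) and *tnxb* (46.2 kb) in ectoderm. These too were chosen once their values were known.

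Several of the widest shared regions lay in clusters of genes that carry no name. The ectoderm region on chromosome 6 from 4168703 to 4652418 spanned 484 kb with 127 constituents at rank 2, overlapped 40 genes and was covered to 69.4% by 8 endoderm regions. Another at *h2ac14* and *znf577* on chromosome 9 spanned 343 kb at rank 3. In endoderm, a region at *zfp36l2* and *thada* (chromosome 5, 17762569 to 18083027) spanned 320 kb with 103 constituents at rank 6 and held 17 Foxi2 and 19 Sox3 peaks. It was covered to 80.2% by 1 ectoderm region.

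The tissues were then checked at genes of known germ layers. A locus was taken as a gene with 5 kb on each side, and 127 of 129 listed symbols were found in the RefSeq table. Over all 21749 protein-coding genes, 12.8% had an ectoderm region at the locus and no endoderm one, 8.57% had the reverse, 49.1% had both and 29.5% had neither. An ectoderm SE without an endoderm SE was found at 8.66% of genes, and an endoderm SE without an ectoderm SE at 2.35%. More of the locus was marked in ectoderm at 42.9% of genes and in endoderm at 25% of genes. The median gene had 2.33% of its locus in ectoderm regions and 1.05% in endoderm regions. With 1 sample per tissue and several genes in a region, the lists below are described by counts alone.

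Endoderm regulators were marked in endoderm. Of 21 genes, 15 had an endoderm region alone, 6 had both and 0 had an ectoderm region alone, and in all 21 more of the locus was marked in endoderm. The median locus was marked to 81.9% in endoderm and 0% in ectoderm. An endoderm SE without an ectoderm SE lay at 10 of the 21, and the reverse at 1. An endoderm Ep300 peak lay at 19 of the loci and an ectoderm one at 8, against 19.2% and 12.6% of all genes. The widest endoderm regions of the 21 genes were 17 distinct regions, of which 7 were SEs and 6 were endoderm-only.

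*sox17a*, *sox17b.1* and *sox17b.2* encode Sox17 factors that specify endoderm, and 1 endoderm-only SE overlapped the 3 genes (chromosome 6, 115108080 to 115183088). This SE ended inside *sox17b.2*, whose locus was marked to 51.7% in endoderm. It spanned 75.0 kb with 28 constituents at rank 225 and held 11 endoderm Ep300, 1 ectoderm Ep300, 0 Foxi2 and 3 Sox3 peaks. *mix1* and *mixer*, which encode homeodomain factors of mesendoderm, lay in 1 SE of 121 kb with 42 constituents at rank 59, of which only 1.54% was marked in ectoderm. That SE held 16 endoderm Ep300 peaks and 1 ectoderm Ep300 peak.

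The Gata factors of endoderm differed in how much ectoderm shared. *gata6* had an endoderm-only SE of 37.2 kb at rank 469 with 6 endoderm and 0 ectoderm Ep300 peaks. *gata5* had an SE of 73.3 kb at rank 438, covered to 15.6% by 2 ectoderm regions, and 4 endoderm and 3 ectoderm Ep300 peaks. *gata4* had a region of 30.3 kb below the cutoff, covered to 0.86% by an ectoderm region of 0.261 kb.

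*cer1*, which encodes the secreted antagonist Cerberus, lay in an endoderm-only SE of 67.2 kb at rank 314. *vegt*, which encodes the maternal T-box factor at the top of the endoderm programme, had an SE of 49.4 kb at rank 382, covered to 1.44%. The *vegt* locus of 21.4 kb was wholly in H3K27me3 in ectoderm and not at all in endoderm.

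The Nodal genes, whose products induce mesendoderm, had smaller regions. *nodal1* and *nodal2* shared 1 endoderm region of 27.2 kb at rank 1245, covered to 1.85%. *nodal5* had 11.1 kb and *nodal6* 0.243 kb. *eomes*, which encodes a T-box factor, had 31.1 kb at rank 705. *hhex*, a homeobox gene of anterior endoderm, had an endoderm-only region of 15.5 kb. *foxa1* and *foxa2* encode pioneer forkhead factors of gut and had 3.45 and 22.6 kb.

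*foxh1* and *gdf3* stood apart in the list. *foxh1*, which encodes a maternal partner of Smad proteins, had 90.6% of its locus marked in ectoderm and 95.4% in endoderm. *gdf3* had an ectoderm SE of 53.4 kb at rank 383 and an endoderm region of 28.4 kb below the cutoff. Its locus was still marked less in ectoderm (19.9%) than in endoderm (45.8%), and held 0 ectoderm and 2 endoderm Ep300 peaks.

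H3K27me3 was found at most endoderm loci in each tissue, and it covered more of the locus in endoderm more often than in ectoderm. The ectoderm list marked 14 and the endoderm list 18 of the 21, against 67.1% and 63.5% of all genes. More of the locus was in H3K27me3 in ectoderm at 5 of the 21 and in endoderm at 11, against 41.5% and 29.3%. The *sox17a* and *foxa2* loci were wholly in H3K27me3 in both tissues. H3K27me3 in ectoderm alone was found at 1 of the 21, *vegt*, and in endoderm alone at 5, namely *mix1* (1.31 kb), *mixer* (11.99 kb), *nodal1* (1.196 kb), *gdf3* (9.26 kb) and *foxh1* (1.65 kb). Among the 22 mesoderm and organizer genes below, it was found in ectoderm alone at *foxa4* (13.5 kb) and at the ligand gene *fgf8* (3.56 kb), and in endoderm alone at *frzb* (12.015 kb), *admp* (0.604 kb), *wnt8a* (6.39 kb) and *mespa* (6.05 kb). Over all genes the shares were 9.08% for ectoderm alone and 5.47% for endoderm alone.

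Epidermal regulators were marked in ectoderm, with more exceptions. Of 15 genes, 6 had an ectoderm region alone, 7 had both, 1 had an endoderm region alone and 1 had neither. More of the locus was marked in ectoderm at 11 and in endoderm at 3. The median locus was marked to 55.3% in ectoderm and 1.05% in endoderm. An ectoderm SE without an endoderm SE lay at 9 of the 15, and the reverse at 0. An ectoderm Ep300 peak lay at 14 loci and an endoderm one at 10. The 13 genes with an ectoderm region shared 12 distinct widest regions of median 80.3 kb, of which 10 were SEs and 11 held both Foxi2 and Sox3.

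*tp63* encodes the p63 factor of epidermal progenitors and had an ectoderm SE of 112 kb with 37 constituents at rank 229. It held 4 ectoderm Ep300, 1 endoderm Ep300, 6 Foxi2 and 7 Sox3 peaks, and 18.4% of it was marked in endoderm. *grhl3*, which encodes a Grainyhead-like factor of the epidermal barrier, had an SE of 101 kb at rank 117. That SE held 6 ectoderm and 0 endoderm Ep300 peaks, 6 Foxi2 and 6 Sox3 peaks, and 0.74% of it was marked in endoderm. *grhl1* had an SE of 102 kb at rank 161, covered to 1.30%. *grhl2* was the exception in its family, with an ectoderm SE of 40.8 kb and an endoderm SE of 45.0 kb that covered 99.5% of it.

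The Dlx genes encode homeodomain factors of non-neural ectoderm. *dlx3* had an SE of 164 kb at rank 52, covered to 15.8%, with 3 ectoderm Ep300 peaks and 1 endoderm Ep300 peak. *dlx5* and *dlx6* lay in 1 ectoderm-only SE of 48.0 kb at rank 806 (chromosome 6, 33887081 to 33935129) with 6 Foxi2 and 6 Sox3 peaks. Their loci also carried H3K27me3 in both tissues, over 12.9 kb in ectoderm and 12.2 kb in endoderm at *dlx5*.

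*tfap2a* and *tfap2c* encode AP-2 factors of epidermis and neural crest. Their ectoderm SEs spanned 46.0 kb at rank 373 and 59.6 kb at rank 228, and their endoderm regions at the locus 0.306 and 0.428 kb. H3K27me3 covered 10.2 kb of the *tfap2a* locus in ectoderm and 28.5 kb in endoderm, and 13.8 and 26.6 kb of the *tfap2c* locus. Over the 15 epidermal genes, H3K27me3 covered more of the locus in ectoderm at 3 and in endoderm at 5. Over all genes the shares were 41.5% and 29.3%. *gata2*, which encodes a factor of ventral ectoderm and blood, had an ectoderm SE of 187 kb at rank 24 with 11 ectoderm Ep300 peaks and 10 Foxi2 peaks. An endoderm SE of 89.3 kb lay wholly inside it.

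The remaining epidermal genes lay in no SE. *msx1* had regions in both tissues below the cutoff, of 45.1 kb in ectoderm and 22.3 kb in endoderm. *gata3* had an endoderm-only region of 0.623 kb. *foxi1* had an ectoderm-only region of 0.221 kb that held no Ep300 or Foxi2 peak. Elsewhere in its locus lay 3 ectoderm Ep300, 2 endoderm Ep300 and 3 Foxi2 peaks. *foxi2*, whose transcript is maternal, had no H3K27ac region in either tissue.

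Genes of epithelial structure were marked in both tissues and more widely in ectoderm. Of 9 genes, 8 had both and 1, *atp1b2*, had an ectoderm region alone. An ectoderm SE without an endoderm SE lay at 5, and the median locus was marked to 100% in ectoderm and 36.6% in endoderm. An ectoderm Ep300 peak lay at 8 loci and an endoderm one at 2. H3K27me3 covered more of the locus in ectoderm at 4 and in endoderm at 2. *epcam*, an epithelial adhesion gene, had an ectoderm SE of 199 kb at rank 31, covered to 45.3%. *cdh1*, which encodes E-cadherin, had an ectoderm SE of 26.4 kb and an endoderm region of 7.65 kb. The keratin gene *krt70* had an SE of 63.6 kb, covered to 1.46%, with 5 ectoderm and 0 endoderm Ep300 peaks. *krt8.1* and *krt18.1* shared 1 SE of 167 kb in ectoderm and 1 of 141 kb in endoderm.

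Neural and placodal regulators were divided. Of 20 genes, 4 had an ectoderm region alone, 5 an endoderm region alone, 9 both and 2 neither. An ectoderm SE without an endoderm SE lay at 6, the reverse at 0, and the median locus was marked to 61.9% in ectoderm and 23.9% in endoderm. Ep300 peaks lay at 15 of the loci in ectoderm and at 14 in endoderm. H3K27me3 covered more of the locus in ectoderm at 3 and in endoderm at 8. *sox3* had an ectoderm SE of 113 kb at rank 203, covered to 16.6%, with 13 Sox3 peaks. *sox2*, the related gene of neural progenitors, had an ectoderm-only region of 37.7 kb below the cutoff with 7 Sox3 peaks, and its locus was wholly in H3K27me3 in both tissues. *sox11* had SEs in both tissues, of 190 kb at rank 27 in ectoderm and 71.7 kb at rank 272 in endoderm.

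*eya1*, a gene of placodes and muscle precursors, had an ectoderm SE of 162 kb at rank 85 and endoderm regions below the cutoff. *lhx5*, *irx1*, *hes4* and *hes5.1* had ectoderm SEs of 104, 137, 87.8 and 60.1 kb. *neurog3*, which encodes a factor of neurons and of endocrine pancreas, had an endoderm-only region of 16.2 kb with 3 endoderm Ep300 peaks and 1 ectoderm Ep300 peak. *foxd4l1.1* and *foxd4l1.2*, forkhead genes of the early neural plate, had endoderm-only regions of 5.45 and 21.5 kb. *foxb1* had an endoderm-only region of 0.441 kb.

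**Figure D4:**
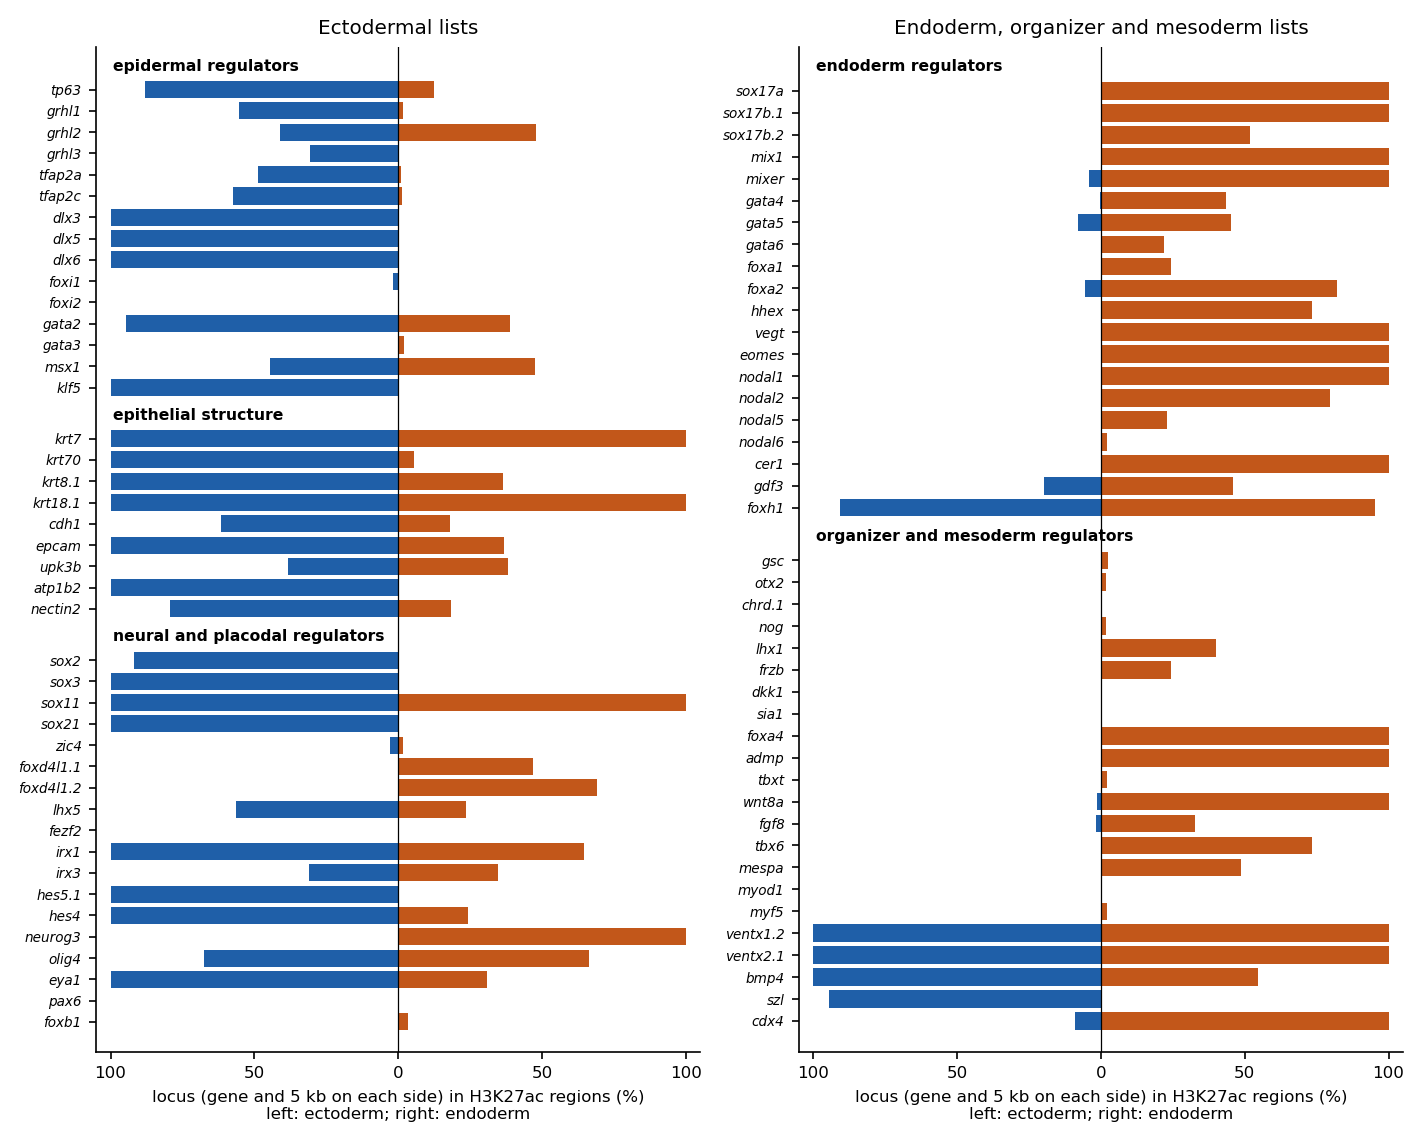
Percent of each gene's locus (the gene with 5 kb on each side) inside H3K27ac regions of ectoderm (blue, to the left) and endoderm (orange, to the right), for genes of 5 lists and 1 sample per tissue. The endoderm regulators drawn have the longer bar on the endoderm side, 11 of 15 epidermal regulators have it on the ectoderm side, and neighbouring genes can share 1 region.

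Genes of the neighbouring mesoderm and organizer were read as a check on the dissection. Of 22, 11 had an endoderm region alone, 6 had both, 1 had an ectoderm region alone and 4 had neither. Ep300 peaks lay at 18 of the loci in endoderm and at 8 in ectoderm. More of the locus was marked in endoderm at 14 and in ectoderm at 2. The endoderm sample thus carried H3K27ac at mesodermal and organizer genes, and the part of neighbouring cells in the endoderm results was not tested. *foxa4* (81.0 kb, endoderm-only) and *admp*, which encodes a BMP-type ligand of the organizer (57.0 kb at rank 236, covered to 13.4%), had SEs in endoderm alone. *gsc*, *otx2* and *nog*, organizer genes, had endoderm-only regions of 0.302, 0.314 and 0.204 kb at the locus, and *chrd.1*, *dkk1* and *sia1* had none. Outside the *otx2* locus lay the ectoderm-only SE of 48.8 kb named above. *wnt8a* had an endoderm region of 32.2 kb, of which 0.62% was marked in ectoderm. *ventx1.2* and *ventx2.1*, targets of BMP signalling, lay in 1 SE of 162 kb in ectoderm and 1 of 134 kb in endoderm. *bmp4* had an ectoderm SE of 125 kb at rank 112 and an endoderm region of 27.2 kb, and *szl*, which encodes the ventral inhibitor Sizzled, had an ectoderm region alone at its locus.

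Other lists gave the background of the comparison. All 12 housekeeping genes had an ectoderm region and 10 an endoderm region, but 11 of the 12 had more of the locus marked in ectoderm, with medians of 56.1% and 24.0%. The lean to ectoderm was thus also present in genes that every cell uses, and its part in the ectodermal lists was not tested. Of 20 hox genes, 17 had no H3K27ac region in either tissue, and all 20 carried H3K27me3 in both. Of 8 genes of germ plasm and vegetal maternal RNA, 5 had both, 2 an ectoderm region alone and 0 an endoderm region alone.

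The comparison was then turned round, from Ep300 peaks to the class of region they lie in. A peak was placed by its summit. Of 5840 ectoderm Ep300 peaks of the first experiment, 44.0% lay in DNA marked in both tables and 23.2% in a shared ectoderm region but outside its endoderm partner. A further 7.86% lay in ectoderm-only regions, 19.5% in no region and 1.37% in endoderm-only regions. Of 11690 endoderm Ep300 peaks, 29.4% lay in DNA marked in both tables, 12.9% in a shared endoderm region outside its ectoderm partner, 9.08% in endoderm-only regions and 42.2% in no region.

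Over all ectoderm Ep300 peaks of the first experiment, 64.8% (63.5 to 66.0) overlapped no endoderm Ep300 peak of that experiment. In ectoderm-only regions the share was 89.5% (86.4 to 92.0). It was 84.8% (82.8 to 86.6) in the parts of shared regions outside the endoderm partner, 51.4% (49.5 to 53.4) in DNA marked in both tables and 68.0% (65.2 to 70.6) in no region. The second experiment gave 87.4%, 79.9%, 40.6% and 64.1%, and 57.7% over all peaks. Of all endoderm Ep300 peaks of the first experiment, 82.7% (82.0 to 83.3) had no ectoderm peak. The share was 95.9% (94.5 to 96.9) in endoderm-only regions, 90.3% outside the ectoderm partner, 64.0% in DNA marked in both and 93.0% (92.2 to 93.7) in no region. A lack of ectoderm peaks was thus not particular to endoderm-only DNA. The parts of shared ectoderm regions outside the endoderm partner held 1357 ectoderm Ep300 peaks, and the ectoderm-only regions 459.

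Ep300 peaks of ectoderm-only regions were kept less often in FS morphants than peaks in DNA marked in both tables. A wild-type ectoderm peak of the second experiment was called kept when it overlapped a peak of FS morphant ectoderm. In ectoderm-only regions 31.7% (28.0 to 35.7) of 564 peaks were kept, in shared regions outside the partner 37.7% (35.3 to 40.2), in DNA marked in both 50.0% (48.1 to 52.0) and in no region 42.4% (38.9 to 46.0). Stronger peaks were kept more often and were unequally spread over these classes. Among the stronger 50% of the list by −log10 p the shares were 41.6% (35.6 to 47.9), 49.3% (45.7 to 52.9), 61.6% (59.1 to 64.0) and 62.2% (55.2 to 68.7). Among the weaker 50% they were 24.1% (19.8 to 29.1), 25.8% (22.7 to 29.1), 33.3% (30.5 to 36.3) and 35.5% (31.6 to 39.5). The intervals of ectoderm-only regions and of shared regions outside the partner overlapped in all these comparisons. Over all strengths, 54.5% (42.6 to 66.0) of 66 ectoderm peaks in endoderm-only regions were kept. In shared endoderm regions outside the ectoderm partner, 54.2% (47.7 to 60.5) of 227 ectoderm peaks were kept. The morphant list was also shorter, with 3593 peaks against 5552. In endoderm, 88.7% (86.8 to 90.3) of wild-type Ep300 peaks in endoderm-only regions were kept in FS morphant endoderm, and 84.8% (83.5 to 85.9) of those in DNA marked in both. The share was 89.9% (88.5 to 91.2) in shared endoderm regions outside the ectoderm partner and 80.2% (78.9 to 81.3) in no region. It was 74.8% (71.4 to 77.9) in shared ectoderm regions outside the endoderm partner and 69.5% (61.5 to 76.5) in ectoderm-only regions. A high share kept was thus not particular to endoderm-only DNA.

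**Figure D5:**
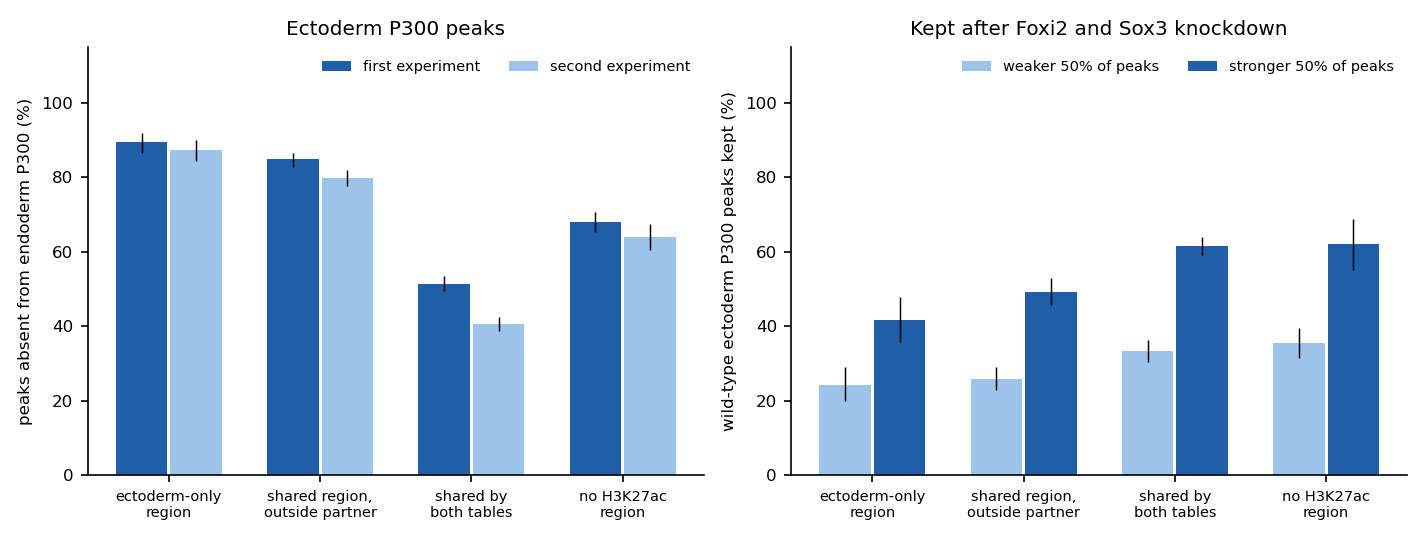
Percent of ectoderm P300 peaks that overlap no endoderm P300 peak of the same experiment (left) and percent of wild-type ectoderm P300 peaks that overlap a peak of FS morphant ectoderm (right, split at the median −log10 p of the list), by the H3K27ac class of the DNA they lie in, with Wilson 95% intervals. In ectoderm-only regions 89.5% are absent from endoderm in the first experiment, and 41.6% of the stronger peaks are kept in morphants.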

How the data were processed

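Per the labels and the study's methods, reads were mapped to version 10.0 of the *X. tropicalis* assembly with Bowtie 2, duplicates were removed, and peaks were called with MACS2 against input. Replicates of Foxi2, Sox3 and the second Ep300 experiment were combined into 1 list per group by the irreproducible discovery rate at 0.05. The first Ep300 experiment has 1 sample per tissue, and the H3K27me3 replicates were pooled. The authors made the histone tables with ROSE, which joined peaks within 12 kb per the file headers. The signal values, constituents, sizes, ranks and SE calls are those of the authors. The −log10 p-values deposited for the narrow peaks were used to split lists into stronger and weaker 50%. The summit offsets deposited with them placed peaks in regions, and the deposited fold enrichment (ratio) and score were not used for any result. No read depth is given in the lists, so the depth behind a region is unknown.

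Overlaps of at least 1 bp were counted with Python 3.11.15, numpy 2.4.6 and pandas 2.3.3, and the overlap code was tested on simulated intervals. Shares carry Wilson 95% intervals (scipy 1.17.1), which take regions as independent and cover counting error only. Width-standardised shares weight 10 width bins by all regions of both tables. Gene positions come from the RefSeq table of UCB_Xtro_10.0. Named regions are the 5 widest and the 3 best-ranked of each tissue-only class, and part of the same choice in the shared classes. Named genes are those of the fixed lists that differ between the tissues or lie in an SE, and exceptions are marked in the text. The classes, gene lists and tests were chosen with earlier results of these data known. Coordinates count from 1. No genome sequence was used, so no motif or sequence is reported here. Some genes of the lists enter the counts but are not reported here one by one.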

Additional observations from a re-analysis of the deposited data

How the results depend on the processing

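Of 51 recomputed values, 17 stayed within the counting error of the values above, 29 moved beyond it and 5 changed sign. Differences are in percentage points, and the order is ectoderm-only share, endoderm-only share, own-tissue Ep300 (ectoderm-only minus shared ectoderm, then endoderm-only minus shared endoderm), Foxi2 with Sox3 (ectoderm-only minus endoderm-only), ectoderm H3K27me3 (endoderm-only minus ectoderm-only) and endoderm H3K27me3 (ectoderm-only minus endoderm-only). The values above were 39.8%, 39.7%, -14.6, -9.21, 3.22, -4.75 and -1.94. With both tables cut to regions of 1 constituent, the classes were redrawn between the cut tables. A region that overlapped only regions of several constituents in the other tissue then counted as tissue-only. The values were 71.8%, 75.5%, -1.31, -0.31, 0.17, -0.40 and 1.07. The last was reversed, with a 95% interval that held 0 (-0.11 to 2.27). Standardised for width they were 41.4%, 38.4%, -0.45, 6.79 (reversed), 6.09, -7.01 and -4.68. With both tables cut to their 5000 best-ranked regions and the classes redrawn between them, the ectoderm-only share was 44.2%. A region that overlapped only lower-ranked regions of the other tissue then counted as tissue-only. The differences that moved were 0.65 (endoderm Ep300, reversed, with an interval of -2.17 to 3.48 that held 0), 14.8, -12.3 and -7.36. When sharing needed 50% of the smaller region, the tissue-only shares were 43.3% and 43.2%. When regions within 5 kb also counted as shared, they were 34.6% and 34.6%, and the Ep300 differences were -12.7 and -7.41. The Ep300 differences were -12.6 and -7.37 with the second experiment, and -10.9 and -7.29 with the stronger 50% of peaks. The Foxi2 with Sox3 difference was 1.34 with the stronger 50% of peaks and 1.61 with stage 9. With stage 8 it was -0.19 (reversed, with an interval of -0.51 to 0.13 that held 0). With H3K27me3 regions above the rank cutoff alone, the differences were -0.063 and 0.31, the latter reversed (0.098 to 0.54). On the 10 chromosomes alone, chosen after the data were seen, all 7 values stayed within counting error.

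No paired analysis was possible because H3K27ac has 1 sample per tissue, so fewer than 2 replicate numbers are shared. The planned motif counts were not run, since no genome sequence was used. Width limits the comparison, since short regions rarely met a peak list: among ectoderm-only regions under 500 bp, 0.35% held an ectoderm Ep300 peak. Foxi2 and Sox3 came from whole embryos, so their low share in endoderm-only regions and the tissue that carried the peaks cannot be told apart.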

Other observations

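The 3 best-ranked endoderm regions differed between the Ep300 experiments. They lie on chromosome 9 at 50324705 to 50405642 and at 45473049 to 45551479, and on chromosome 8 at 14545364 to 14757640, and each overlaps an ectoderm region. They held 132 of the 11690 endoderm Ep300 peaks of the first experiment and 4 of the 11597 of the second. Of the ectoderm Ep300 peaks they held 26 of 5840 in the first experiment and 0 of 5552 in the second. They also held 1 of 6039 Foxi2 and 5 of 14648 Sox3 peaks of stage 10.5. The 2 regions on chromosome 9 overlapped no gene, and their signal per bp was 4.78 and 4.25, against a median of 0.492 over the endoderm SEs. The region on chromosome 8 was covered to 99.98% by the best-ranked ectoderm region (14545232 to 14757604). That ectoderm region held 6 ectoderm and 38 endoderm Ep300 peaks in the first experiment, and 0 and 3 in the second. Signal per bp reached 69.3 among ectoderm SEs and 57.4 among endoderm SEs.

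Chromosome 10 had the lowest share of tissue-only regions of the 10 chromosomes in both tables. There 32.0% (28.9 to 35.4) of 790 ectoderm regions and 30.9% (27.9 to 34.0) of 874 endoderm regions were found in that tissue alone. The other 9 chromosomes ranged from 36.4 to 44.5% in ectoderm and from 35.8 to 42.4% in endoderm.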
